A study of Mus musculus with 2 samples.

Results

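The 10 genes described here set whether a myoblast stays in the cell cycle or leaves it in G1. They are the D-type cyclins Ccnd1, Ccnd2 and Ccnd3, the CIP/KIP inhibitors Cdkn1a, Cdkn1b and Cdkn1c, the cyclin D partner kinase Cdk6, the pocket protein Rb1, and Trp53 with its ubiquitin ligase Mdm2. They were chosen by name for their known roles, as 10 of 55414 genes in the files, and were read in nuclei of C2C12, a mouse myoblast line that can exit the cycle and fuse into myotubes. The data comprised 2 single-nucleus RNA-sequencing libraries of this 1 line. For the first, nuclei were incubated with yeast poly(A) polymerase, which adds adenines to free RNA ends, before oligo(dT) capture (in situ polyadenylated nuclei). For the second, nuclei went to capture without the enzyme and, per the study's methods, without its warm incubation (standard nuclei), so that enzyme and incubation cannot be told apart. Each group is a single library without replicates, so no test was made, and every interval below is a 95% interval that covers counting error only.

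D-type cyclins bind CDK4 or CDK6 and start the phosphorylation of the retinoblastoma protein, which releases E2F factors and commits a cell to S phase. The CIP/KIP proteins p21 (Cdkn1a), p27 (Cdkn1b) and p57 (Cdkn1c) bind cyclin-CDK complexes and hold this step back. p53, the product of Trp53, activates Cdkn1a after DNA damage and also activates Mdm2, whose product marks p53 for destruction, which closes a negative feedback loop. In muscle precursors, p21, p57 and the retinoblastoma protein are known for the permanent exit from the cycle that goes with differentiation, and cyclin D3 for staying high while the other D cyclins decline.

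The activation of Cdkn1a and Mdm2 by p53 runs through p53 response elements, so windows from 3000 bases before to 2000 bases after the start of each gene were searched, in GRCm39, for the p53 full site (2 adjacent decamers, with the C and the G of each decamer fixed), whose consensus reads alike on both strands. Of 21768 protein-coding windows, 0.836% held a site with at most 1 mismatch to the consensus. Cdkn1a was the only 1 of the 10 genes with such a site, at chr17:29309902-29309921 on the plus strand. This site lies 34 bases before the start of the annotated gene and at -2836 bases from the start of the canonical transcript. It is outside every annotated exon of Cdkn1a itself. Of 30 other genes of the p53 pathway, Ccng1 (cyclin G1) and Zmat3 (an RNA-binding target of p53) also had such sites. The Ccng1 site shown is at chr11:40646289-40646308 on the minus strand, outside every annotated exon of Ccng1 itself. The Zmat3 site is at chr3:32418480-32418499 on the minus strand, in an intron of the canonical transcript that is exonic in another transcript. The closest match in the Mdm2 window had 3 mismatches, as did 22.3% of all windows or came closer. It lies at chr10:117546010-117546029 on the minus strand, also in an intron of the canonical transcript and in an exon of another. The sites are shown because the values of these genes are compared over nuclei below. Capitals mark the fixed C and G of each decamer, and each site is written on the strand of its gene.
Cdkn1a, 1 mismatch: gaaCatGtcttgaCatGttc
Zmat3, 0 mismatches: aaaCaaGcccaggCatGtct
Ccng1, 1 mismatch: agaCctGcccgggCaaGcct
Mdm2, 3 mismatches: ggtCaaGttgggaCacGtcc
With the 40 bases that precede it, the Cdkn1a site reads, site in capitals, as follows (chr17:29309862-29309921).
Cdkn1a upstream: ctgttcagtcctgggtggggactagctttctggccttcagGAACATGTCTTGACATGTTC
A match is a description of the letters and not evidence of binding. On the same build Cdkn1a spans chr17:29309936-29319701 on the plus strand, Mdm2 chr10:117524780-117546730 on the minus strand, Trp53 chr11:69469669-69482701 on the plus strand, Ccnd1 chr7:144483668-144493662 on the minus strand and Ccnd3 chr17:47815767-47910624 on the plus strand.

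Unique molecular identifiers (UMIs) count captured molecules. Barcodes with over 750 kallisto UMIs were taken as nuclei: 1335 in situ polyadenylated and 1123 standard, of which 1328 and 1123 are also in the STAR matrix. The kallisto matrix counts reads that match annotated transcripts, and the STAR matrix counts reads aligned to the genome, and the nuclei held 1974289 and 1382804 UMIs in the first and 11545281 and 6237950 in the second. No nucleus barcode was shared between the libraries. Ribosomal RNA took 48.3% of kallisto UMIs in in situ polyadenylated and 29.4% in standard nuclei, and protein-coding genes took 29.1% and 55.5%. In the kallisto matrix standard nuclei had all 11 myoblast markers, Msc on 1 UMI, and in situ polyadenylated nuclei all but Msc. These markers summed to 1683 UMIs in in situ polyadenylated and 2607 in standard nuclei, of which Vim had 922 and 1314. Several were sparse, with Myod1 at 15 and 13, Myf5 at 6 and 9 and Pax7 at 5 and 4. Endothelial Pecam1 had 10 and 35 and epithelial Krt14 8 and 9. The 6 immune markers summed to 3 and 10 kallisto UMIs, the 5 endothelial markers to 10 and 36 and the 5 epithelial markers to 8 and 9, with Adgre1, Csf1r, Cdh5 and Epcam at 0 in both libraries. In the STAR matrix Cd3e alone had 1403 UMIs in in situ polyadenylated against 11 in standard nuclei, while it was at 0 in the kallisto matrix of both and Ptprc stood at 6 and 6 STAR UMIs. Peak1 took 30.4% of the STAR UMIs of in situ polyadenylated and 0.102% of those of standard nuclei, with 135 and 192 kallisto UMIs, and it is part of the total behind each STAR level below.

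The 10 genes together made up 0.0235% of kallisto UMIs in in situ polyadenylated and 0.0764% in standard nuclei, or 464 and 1056 UMIs. Levels are given as CPM, the UMIs of a gene per 1000000 UMIs of the same nuclei and matrix. Per kilobase of exon, Ccnd1 and Mdm2 came first in the kallisto matrix of both libraries, and Cdkn1c was at 0 in both.

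Of the D cyclins, Ccnd1 had the highest level per kilobase in both libraries. It had 135 kallisto UMIs in in situ polyadenylated nuclei, which is 68.4 CPM (57.3 to 80.9), and 275 in standard nuclei, which is 199 CPM (176 to 224). In the STAR matrix it had 386 and 852 UMIs, or 33.4 and 137 CPM. Ccnd3 was sparse in transcripts, with 14 and 51 kallisto UMIs (7.09 and 36.9 CPM), and far more frequent in the genome alignment, with 327 and 592 STAR UMIs (28.3 and 94.9 CPM). Ccnd2 was close to the limit of detection: it had 3 and 10 kallisto UMIs (1.52 CPM, 0.313 to 4.44, and 7.23 CPM, 3.47 to 13.3) and 20 and 42 STAR UMIs. Each D cyclin had the higher CPM in the standard library in both matrices.

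Of the CIP/KIP inhibitors, Cdkn1b (p27) had 29 kallisto UMIs in in situ polyadenylated and 64 in standard nuclei (14.7 and 46.3 CPM), and 158 and 296 in the STAR matrix. Cdkn1a (p21) had 19 and 60 kallisto UMIs (9.62 and 43.4 CPM) and 104 and 224 STAR UMIs. Cdkn1c (p57) had 0 kallisto UMIs in 1335 in situ polyadenylated nuclei, with an interval of up to 0.276% of nuclei with a UMI. It also had 0 in 1123 standard nuclei, with an interval of up to 0.328%. Its STAR counts were 6 and 4. They cannot be assigned with certainty, since the whole of Cdkn1c lies inside the lncRNA 4933417O13Rik on the same strand, which itself had 6 and 1 STAR UMIs. Per kilobase of exon, the kallisto intervals of Cdkn1a and Cdkn1b overlapped in each library.

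Cdk6, the kinase, had 43 and 75 kallisto UMIs (21.8 and 54.2 CPM) and 399 and 1303 STAR UMIs (34.6 and 209 CPM). Rb1 had 27 and 41 kallisto UMIs (13.7 and 29.6 CPM) and 190 and 528 STAR UMIs (16.5 and 84.6 CPM). Trp53 had 54 and 71 kallisto UMIs (27.4 and 51.3 CPM) and 259 and 344 STAR UMIs (22.4 and 55.1 CPM). Mdm2 had 140 kallisto UMIs in in situ polyadenylated nuclei, 70.9 CPM (59.7 to 83.7), and 409 in standard nuclei, 296 CPM (268 to 326), with 939 and 1940 STAR UMIs (81.3 and 311 CPM). Per kilobase, Mdm2 exceeded Trp53 in each library and matrix, without overlap of their intervals.

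**Figure D1:**
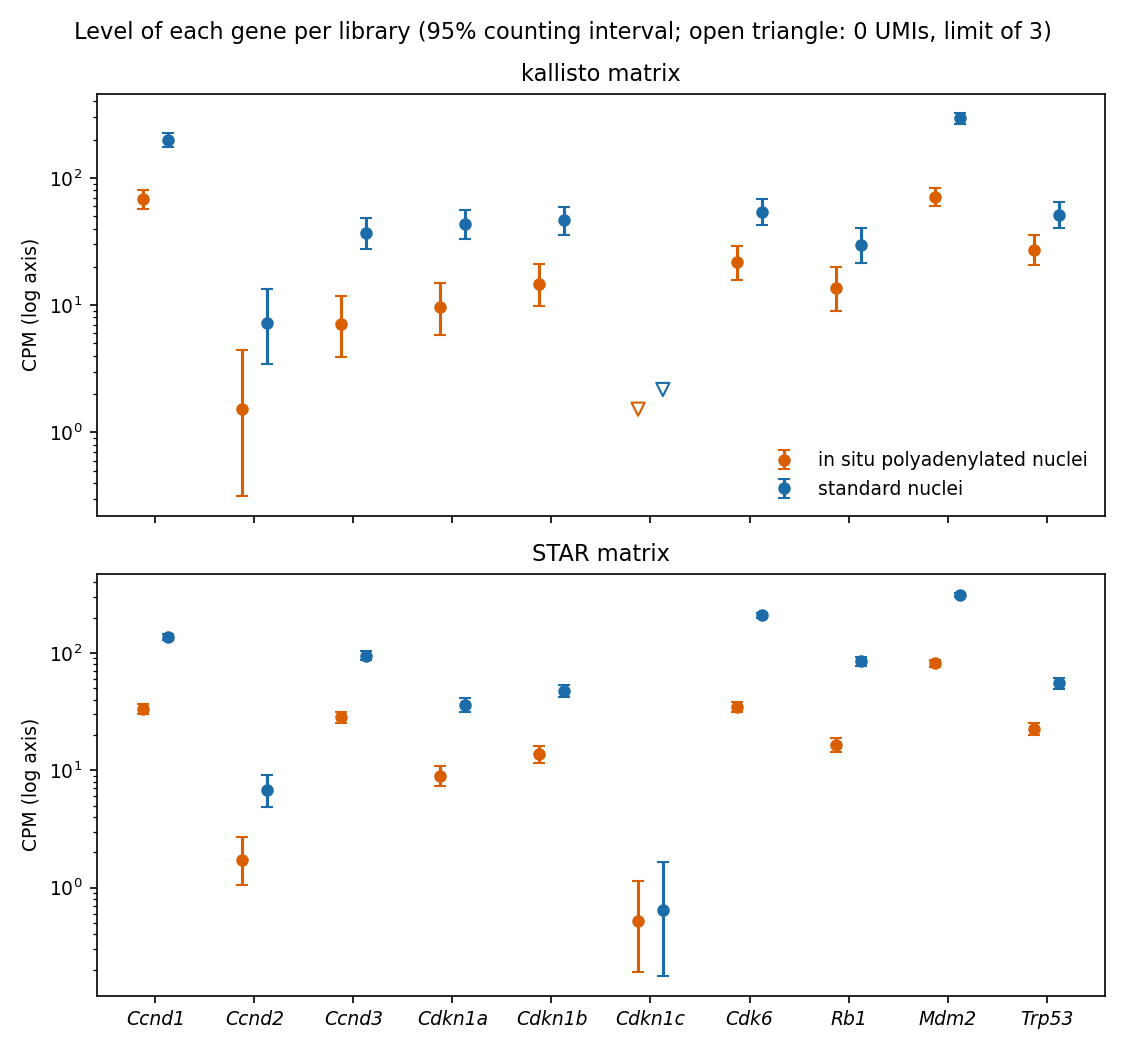
Level of each of the 10 genes in CPM (log axis) in the kallisto matrix (top) and the STAR matrix (bottom), for in situ polyadenylated and standard nuclei, 1 library each, with exact Poisson 95% intervals; open triangles stand for 0 UMIs and are drawn at the limit of 3 UMIs. Every gene with UMIs sat lower in the in situ polyadenylated library in both panels, and Cdkn1c had 0 kallisto UMIs in both libraries.

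Levels of different genes were compared per kilobase, over exons for kallisto and over the gene body for STAR. Since a UMI counts a molecule and not its length, the order depends on this division. By kallisto CPM alone, Mdm2 (296, 268 to 326) stood above Ccnd1 (199, 176 to 224) in standard nuclei. After in situ polyadenylation their CPM intervals overlapped (70.9, 59.7 to 83.7, and 68.4, 57.3 to 80.9). In standard nuclei the kallisto order began with Ccnd1 at 41.6 CPM per kb and Mdm2 at 38.4, whose intervals overlapped, and went on with Cdkn1b at 10.2, Cdkn1a at 7.18 and Trp53 at 6.96, neighbours that also overlapped. Ccnd3 (3.99), Cdk6 (3.76) and Rb1 (2.46) formed a lower set in which each overlapped the next, and Ccnd2 followed at 0.769, below Rb1 without overlap. After in situ polyadenylation Ccnd1 (14.3) stood above Mdm2 (9.20) and Mdm2 above Trp53 (3.71), both without overlap, and from Trp53 down every gene overlapped the next. Per kb of gene body in the STAR matrix Mdm2 (14.2 in standard and 3.71 in in situ polyadenylated nuclei) and Ccnd1 (13.7 and 3.35) again came first with overlapping intervals, and Cdk6 stood at 1.10 and 0.182 and Rb1 at 0.594 and 0.116.

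The ratio of the libraries was taken for each gene as log2 of in situ polyadenylated over standard CPM, minus the median of those protein-coding genes that reached 50 UMIs in each of the libraries. That median was -1.19 over 2117 genes in the kallisto matrix and -1.92 over 7752 genes in the STAR matrix, so a relative ratio of 0 means as much lower as the typical protein-coding gene. Before this centring all 9 genes with kallisto UMIs had a lower CPM in in situ polyadenylated nuclei, by log2 ratios from -2.38 (Ccnd3) to -0.91 (Trp53). After it, the 8 genes that reached 20 UMIs over the libraries combined had a median of -0.41, against -0.21 over all 8016 protein-coding genes tested.

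Relative to the typical gene, Ccnd3 was lowest in the kallisto matrix at -1.19 (-2.16 to -0.31) and was the 1 gene of 8 past a 2-fold difference, in the lower direction, where 10.8% of all genes tested were past it; 0 of 8 were past it in the higher direction, where 2.74% of genes were. Cdkn1a followed at -0.98 (-1.81 to -0.22), Mdm2 at -0.87 (-1.16 to -0.59), Cdkn1b at -0.46 (-1.15 to 0.19) and Ccnd1 at -0.35 (-0.66 to -0.05). Cdk6 at -0.12, Rb1 at 0.08 and Trp53 at 0.28 had intervals that included 0. Ccnd2, with 3 and 10 UMIs, gave -1.06 with an interval from -3.56 to 0.90.

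The STAR matrix gave another order. Ccnd3 stood at 0.18 (-0.02 to 0.37), Mdm2 at -0.01 (-0.13 to 0.10), Cdkn1a at -0.07 (-0.42 to 0.27) and Ccnd1 at -0.11 (-0.29 to 0.07), so that none of the 4 was below the typical gene by more than counting error. Cdk6 at -0.67 (-0.84 to -0.51) and Rb1 at -0.44 (-0.69 to -0.20) were below it and Trp53 at 0.62 (0.39 to 0.86) above it. None of 9 genes tested was past 2-fold, against 13.1% of 12382 genes in the higher and 2.21% in the lower direction, and the median of the 9 was -0.04. Trp53 was the only 1 of the 10 whose STAR interval lay above 0.

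**Figure D2:**
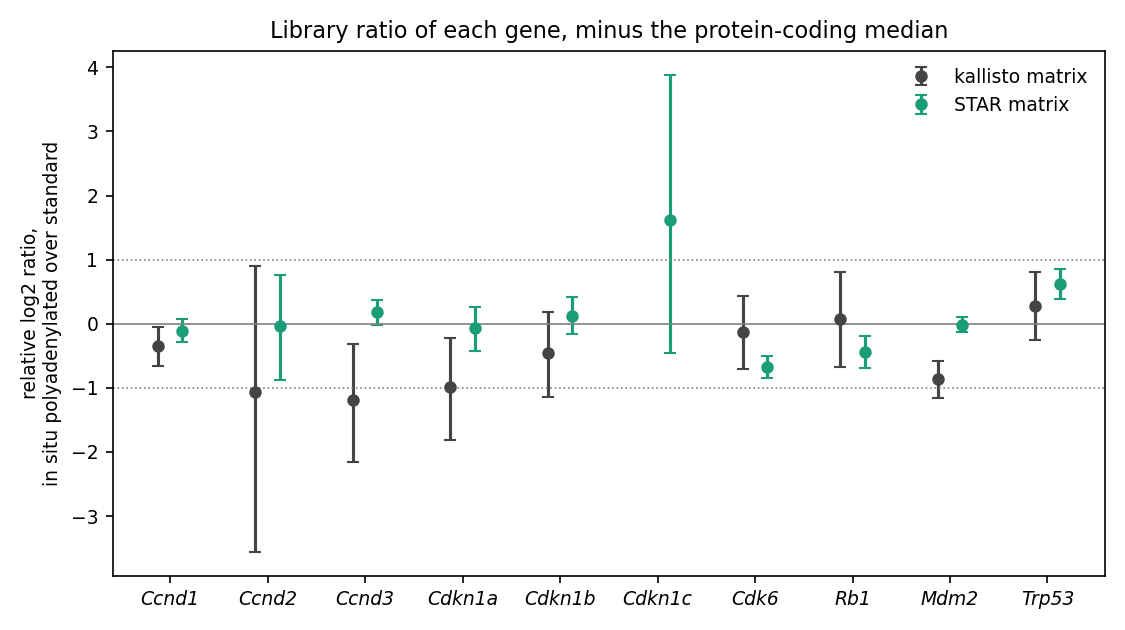
Relative log2 ratio of in situ polyadenylated over standard nuclei for each gene, with counting 95% intervals, in the kallisto and the STAR matrix; 0 is the protein-coding median and the dotted lines mark 2-fold. Kallisto values of Ccnd3, Cdkn1a and Mdm2 lie near -1 while their STAR values lie near 0, and Cdk6 lies lower in the STAR matrix.

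The 2 matrices differed most in standard nuclei for Cdk6, Rb1 and Ccnd3, the 3 members with the highest share of intron. On the same standard nuclei, the STAR matrix held 17.4 UMIs per kallisto UMI for Cdk6, 12.9 for Rb1 and 11.6 for Ccnd3, whose bodies are 92.4%, 91.5% and 90.2% intron, against a median of 5.20 over 6746 protein-coding genes. Cdkn1b, with 10.97% intron, stood at 4.62, Cdkn1a (38.1%) at 3.73, Trp53 (43.4%) at 4.85, Mdm2 (64.9%) at 4.74 and Ccnd2 (65.2%) at 4.2. Ccnd1, with 52.1% intron, had the lowest value at 3.098. After in situ polyadenylation Ccnd3 reached 23.4, while Cdk6 (9.28) and Rb1 (7.04) were lower than in standard nuclei, and the median was 4.46. Since these kallisto counts are small (14 for Ccnd3 in in situ polyadenylated nuclei), the ratios carry wide counting error.

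**Figure D3:**
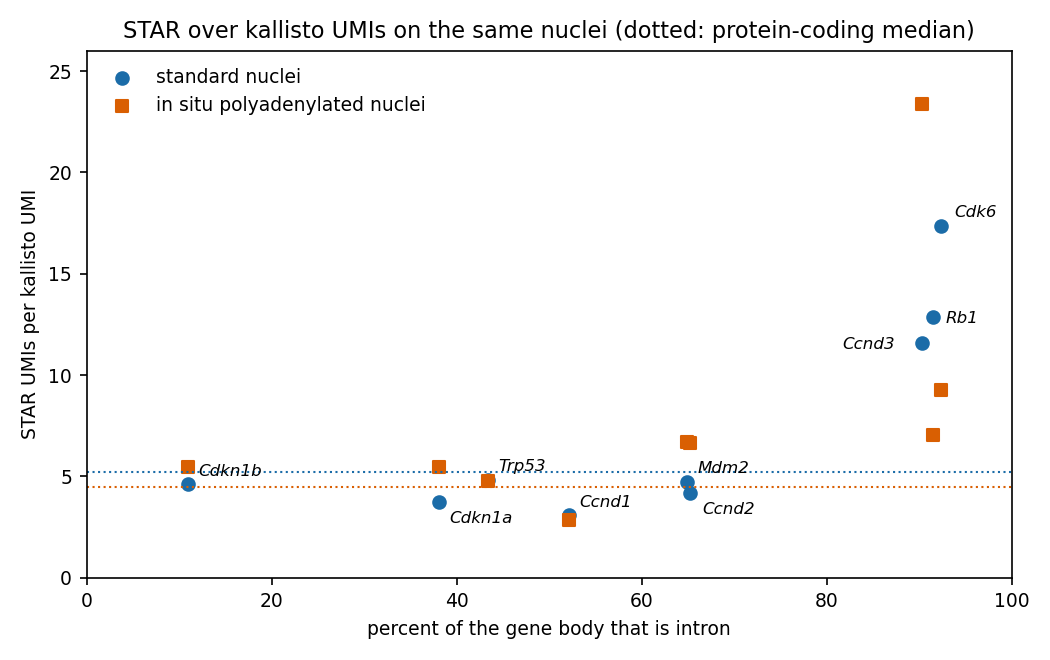
STAR UMIs per kallisto UMI on the same nuclei against the percent of the gene body that is intron, for 9 genes with kallisto UMIs in each library; dotted lines are the medians of protein-coding genes. Cdk6, Rb1 and Ccnd3, at over 90% intron, sit above both medians, and Ccnd1 sits below them.

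Transcript sequence that a gene shares with others can move kallisto counts between genes. Of the distinct 31-base words of Mdm2 transcripts 3.09% also occur in other genes, as do 5.44% of those of Trp53, 3.97% of Ccnd3 and 1.95% of Cdkn1a, while Ccnd1 and Cdkn1c share none. Of 248 standard nuclei with Mdm2, 246 had an estimated count that was not whole, which was the case in 0 nuclei for Ccnd1. Overlapping antisense genes with STAR counts of their own included Wrap53 beside Trp53 (71 and 128 UMIs) and Bysl beside Ccnd3 (57 and 90). Beside Rb1 were Rcbtb2 (40 and 110) and Lpar6 (11 and 29). LTO1 beside Ccnd1 had 27 and 67, 9330179D12Rik beside Ccnd2 had 13 and 7, and Dino beside Cdkn1a had 7 and 0. The sources used here do not give whether the STAR counting used strand. The part of these reads in the STAR counts of the members they overlap was therefore not tested.

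Per nucleus, most of these genes were seen in a minority of nuclei. Each nucleus was thinned to 750 kallisto UMIs, which left out 3 standard nuclei and no other. Ccnd1 was then present in 5.24% of nuclei (4.11% to 6.58%, exact binomial) after polyadenylation and 13.6% (11.6% to 15.7%) in the standard library, and Mdm2 in 3.90% and 15.0%. Unthinned, Ccnd1 was present in 9.21% and 19.8% and Mdm2 in 7.79% and 22.1%. At 750 UMIs each of the other 8 genes was present in at most 2.47% of nuclei of the in situ polyadenylated library (Trp53) and in at most 47 of 1120 standard nuclei (Cdk6). Thinned to 2000 STAR UMIs, Mdm2 was present in 15.4% and 37.9%, Cdk6 in 6.93% and 33.3%, Ccnd1 in 6.70% and 22.6%, Ccnd3 in 5.65% and 16.3%, Rb1 in 3.46% and 13.8%, Trp53 in 4.14% and 9.71%, Cdkn1b in 3.09% and 8.82% and Cdkn1a in 1.81% and 5.79%. At that depth at least 1 of the 10 genes was seen in 38.3% and 82.5% of nuclei.

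Free RNA outside nuclei gives UMIs too, and with 1 cell line no cell type that lacks these genes is at hand, so barcodes with 1 to 100 kallisto UMIs served as the background. Many of the genes had similar levels in standard nuclei and in it: Ccnd1 had 199 CPM in nuclei and 225 in low-UMI barcodes, Cdkn1a 43.4 and 40.5, Trp53 51.3 and 52.6, and Rb1 29.6 and 31.3. Ccnd2 stood at 7.23 against 3.34 CPM, on 10 and 8 UMIs (log2 ratio 1.12, -0.38 to 2.66). Mdm2 was higher in nuclei (296 against 254 CPM; log2 ratio 0.22, 0.03 to 0.40), and Cdkn1b was lower (46.3 against 63.4 CPM; -0.45, -0.90 to -0.02). The median log2 ratio of nuclei over low-UMI barcodes was -0.06 for the 10 genes and -0.21 for protein-coding genes. In the in situ polyadenylated library it was -0.68 and -0.36, with Ccnd3 at -1.42 (-2.42 to -0.51), Cdkn1a at -0.86 (-1.75 to -0.02) and Trp53 at 0.49 (-0.13 to 1.12). A share of nuclei with a UMI of these genes can therefore not be read as a share of nuclei that express them.

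Cdkn1c had kallisto UMIs in low-UMI barcodes but not in nuclei. Low-UMI barcodes held 25 UMIs of it after in situ polyadenylation and 8 in the standard library, all in barcodes with 1 to 10 UMIs, and 0 in nuclei, which makes its nuclear CPM at least 8.003-fold lower than in low-UMI barcodes in the first (counting 3 UMIs per library for 0), where the counting interval of the log2 ratio reached -2.59. In the standard library the same count of 3 gave a CPM 1.54-fold lower, with a counting interval of the log2 ratio that reached 0.02.

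Other genes of the pathway were read from lists. Of 35 other G1/S regulators 26 had enough kallisto UMIs, with a median relative ratio of -0.08, 0 past 2-fold higher and 2 past it lower, beside 10.8% of all genes: Ccne2, cyclin E2 (5 and 17 UMIs, -1.09), and Skp2, which targets p27 for destruction (20 and 64 UMIs, at the limit of -1). The interval of Ccne2 included 0 (-2.88 to 0.41), and that of Skp2 did not (-1.80 to -0.26). E2f3 had 134 and 109 UMIs (0.98, 0.60 to 1.35), with 0.10 in the STAR matrix. Mnat1 had 58 and 88 UMIs (0.08) and E2f2 54 and 92 (-0.09). The INK4 genes Cdkn2a and Cdkn2b, picked out after their values were seen, had 0 kallisto UMIs in both libraries and 0 STAR UMIs in standard nuclei, with 7 and 10 STAR UMIs in in situ polyadenylated nuclei. Of 21 other cell cycle exit genes 17 were tested, with a median of 0.02 and 1 past 2-fold lower, also beside 10.8%. That gene was Id2, an inhibitor of differentiation factors (4 and 16 UMIs, -1.32, -3.36 to 0.31). Its relative Id1 had 44 and 82 UMIs (-0.22), Gas1 35 and 45 (0.32) and Tgfb1 24 and 45 (-0.23). In the STAR matrix 2 of 32 G1/S regulators tested were past 2-fold higher, Cdk4 (1.05, 0.79 to 1.30) and Cables1 (1.99), and 1 lower, Lin52 (-1.01). Of 20 exit genes 2 were past it higher, Gas6 (1.30) and Id3 (1.43, 1.09 to 1.77), and 0 lower. Of all genes 13.1% were past it higher and 2.21% lower. The list medians were 0.11 and 0.18, against 0.06 over all genes.

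Of 30 other p53 pathway genes 24 were tested, with a median of -0.61 against -0.21 over all protein-coding genes; 6 were past 2-fold lower, beside 10.8% of all genes, and 0 higher. They were Trp53inp1, a stress-induced partner of p53 (4 and 34 UMIs, -2.41), Rrm2b, a ribonucleotide reductase subunit (4 and 31, -2.28), Cop1, a ubiquitin ligase (8 and 49, -1.94), Ddb2, a DNA repair factor (4 and 17, -1.41), the death receptor Tnfrsf10b (7 and 28, -1.32) and Zmat3 (15 and 51, -1.09). The interval of Ddb2 included 0 (-3.44 to 0.21), while those of the others past 2-fold lay below 0. The most abundant of the list were the kinase Plk2 (693 and 1328 UMIs, -0.26), Mdm4, the relative of Mdm2 (72 and 229, -0.99), and the apoptosis gene Bax (75 and 164, -0.45). In the STAR matrix the median of 28 genes was -0.06 against 0.06, with 2 past 2-fold lower (Trp53inp1 at -1.30 and Cop1 at -1.34) and 1 higher (Usp7), beside 2.21% and 13.1% of all genes. Lists were compared by counts and medians alone.

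Over single nuclei, Mdm2 was spread far less evenly than the other genes, a feature looked at after the data were seen. In standard nuclei the STAR matrix held 0 Mdm2 UMIs in 426 nuclei, 1 in 307, 2 to 4 in 298, and 5 or more in 92. Those 92 nuclei held 45.8% of all Mdm2 UMIs, 37 had 10 or more, and the highest had 50 among 15576 UMIs, with 13.8 in the kallisto matrix. After polyadenylation 811 nuclei had 0, 22 had 5 or more, and the highest had 25 among 34429 UMIs, with 1.07 in the kallisto matrix. Over nuclei, the Mdm2 share of UMIs in the 2 matrices correlated at 0.67 in standard and 0.43 in in situ polyadenylated nuclei (Pearson, described only, since both matrices come from the same reads).

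A dispersion index near 1 is what counting gives when every nucleus has the same share of the gene. For Mdm2 it was 3.92 in standard nuclei, above 99.2% of 2649 genes with at least 500 UMIs, whose median was 1.10, and 2.56 in in situ polyadenylated nuclei, above 96.3% of 1138 genes, whose median was 1.30. In standard nuclei Cdk6 stood at 1.26, Ccnd1 at 1.23, Ccnd3 at 1.203, Rb1 at 1.13, Cdkn1a at 1.08, Cdkn1b at 1.06 and Trp53 at 0.97. Among in situ polyadenylated nuclei the members other than Mdm2 with at least 100 UMIs lay between 1.03 (Cdkn1a) and 1.44 (Cdk6).

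**Figure D4:**
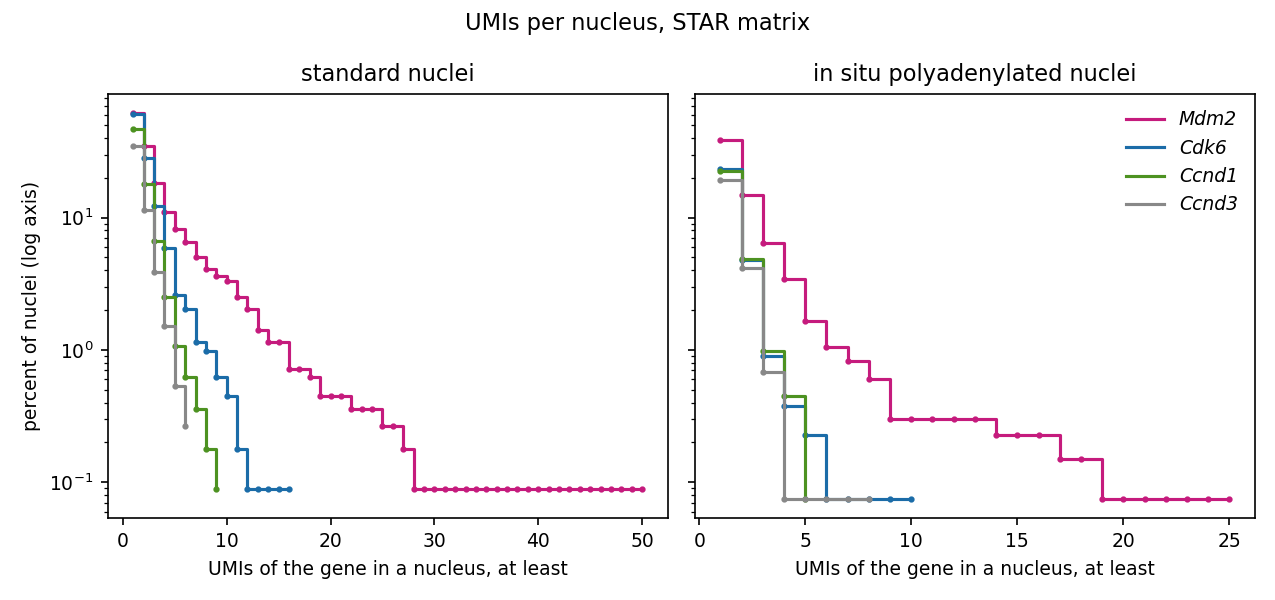
Percent of nuclei (log axis) with at least the number of STAR UMIs on the x axis, for Mdm2, Cdk6, Ccnd1 and Ccnd3 in standard (left) and in situ polyadenylated nuclei (right). The Mdm2 line runs out to 50 UMIs in standard nuclei and 25 in in situ polyadenylated nuclei, past 16 and 10 for Cdk6.

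Nuclei were therefore divided by Mdm2 itself, into the top 10% by its share of STAR UMIs (112 standard and 132 in situ polyadenylated nuclei, with at least 2 and 1 Mdm2 UMIs each) and the rest, with 26 and 59 nuclei within 10% of the limit, and the other genes were read in both. Mdm2 stood at 1447 against 194 CPM in standard and 464 against 50.0 CPM in in situ polyadenylated nuclei, which the division fixed. Ratios are given minus the median of protein-coding genes that reached 50 UMIs over both sets, and nuclei are not replicates.

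Cdkn1a was higher in the Mdm2-high nuclei of both libraries at the 10% limit. It had 46 UMIs (79.1 CPM) in the 112 Mdm2-high and 178 (31.5 CPM) in the other standard nuclei, a relative log2 ratio of 1.34 (0.83 to 1.81). In in situ polyadenylated nuclei it had 21 UMIs (24.1 CPM) and 83 (7.78 CPM), a ratio of 1.28 (0.51 to 1.98), but with the top 25% of nuclei taken as Mdm2-high the ratio there was 0.45 (-0.20 to 1.07). It was the only 1 of 7 members tested past 2-fold in standard nuclei, where 0.955% of 9428 protein-coding genes were past it in the higher direction. The kallisto matrix did not give the same value: with nuclei divided and counted by kallisto, Cdkn1a had 3 UMIs in Mdm2-high and 55 in other standard nuclei, a ratio of -0.82 (-3.14 to 0.81), and with nuclei divided by STAR and counted by kallisto it was 0.65 (-0.64 to 1.74). With division by kallisto and STAR counts it was 0.79 (0.21 to 1.33).

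In in situ polyadenylated nuclei Rb1 was also past 2-fold, with 38 UMIs in Mdm2-high and 152 in other nuclei (1.26, 0.71 to 1.78), so that 2 of 7 members were, against 0.896% of 8034 genes. In standard nuclei Rb1 stood at 0.27 (-0.15 to 0.67). The in situ polyadenylated Mdm2-high nuclei differed from the rest in other ways: their median depth was 5938 against 6896 UMIs, the typical protein-coding gene was higher by 0.35, and Malat1 by 0.66 more, where in standard nuclei these were -0.0050 for the typical gene and -0.11 for Malat1. Peak1 was lower in them, at -0.64. With Peak1 left out of the total by which nuclei were ranked, median depths were 4613 and 4762 UMIs, Cdkn1a stood at 1.46 (0.73 to 2.15) and Rb1 at 1.08 (0.50 to 1.62), and in standard nuclei Cdkn1a had the same 46 and 178 UMIs. The part of Malat1 and of the typical gene in the result was not tested. Trp53 itself, Ccnd1, Ccnd3, Cdkn1b and Cdk6 had relative ratios between -0.21 and 0.24 in both libraries, with intervals that included 0.

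Some of the other p53 pathway genes were higher in standard Mdm2-high nuclei. Of 25 that reached 50 UMIs, 5 were past 2-fold higher and 11 had an interval above 0, where 0.955% and 4.14% of all genes were or had; 16 were above 0, as were 50.0% of all genes; 1 gene, Tigar, was past 2-fold lower on 2 UMIs, and none had an interval below 0. Trp53inp1 had 70 UMIs in Mdm2-high and 193 in other nuclei (1.82, 1.41 to 2.23), Ccng1 29 and 104 (1.45, 0.80 to 2.05), Tnfrsf10b 17 and 64 (1.38), Sesn2, a stress sensor, 42 and 192 (1.09), and Ei24, a p53-induced gene, 18 and 85 (1.05). Zmat3 stood at 0.92 (0.42 to 1.39) and Plk2 at 0.82 (0.69 to 0.95), while Bax (-0.10) and Bbc3 (0.10), both apoptosis genes, had intervals that included 0. The list median was 0.25. In the top 25% by Mdm2 share 11 had an interval above 0, beside 5.05% of all genes, and 1 was past 2-fold higher. With nuclei divided by kallisto and counted by STAR 6 had an interval above 0, beside 3.43% of all genes. There 2 were past 2-fold higher, and the list median was 0.093. The share of all genes past 2-fold is not given for these 2 divisions.

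In in situ polyadenylated nuclei 19 genes of the list had at least 50 UMIs, and 1 was past 2-fold, Trp53inp1, with 14 and 38 UMIs (1.82, 0.82 to 2.74). Its total of 52 UMIs reached the minimum of 50 only through its excess in Mdm2-high nuclei. Its ratio here is therefore a description and not independent support. Trp53inp1 was also the only gene of the list with an interval above 0, where 3.71% of all genes had 1, so that the count was near the share of all genes. In all, 11 of 19 were above 0, as were 50.0% of all genes. Plk2 stood at -0.06 (-0.28 to 0.15) and Zmat3 at 0.26 (-0.74 to 1.13), and the list median was 0.28. Of the genes whose sites are shown above, Cdkn1a had a ratio with an interval above 0 in both libraries. Zmat3 did in standard nuclei alone, and without Peak1 in the total it stood at -0.013 after polyadenylation. Ccng1 had 7 and 31 UMIs there, under the minimum. With the 22 in situ polyadenylated nuclei of at least 5 Mdm2 UMIs taken as Mdm2-high, 2 list genes were past 2-fold higher and 4 lower. The 4 (Bbc3, Plk3, Ei24 and Ddb2) had 1 UMI each in those nuclei. Of the list, 2 had an interval above 0 and 1 below it, Plk2 at -0.81 (-1.27 to -0.39). In the top 25% of this library 3 had an interval above 0 and 1 below it, Usp7 at -0.20 (-0.36 to -0.04).

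**Figure D5:**
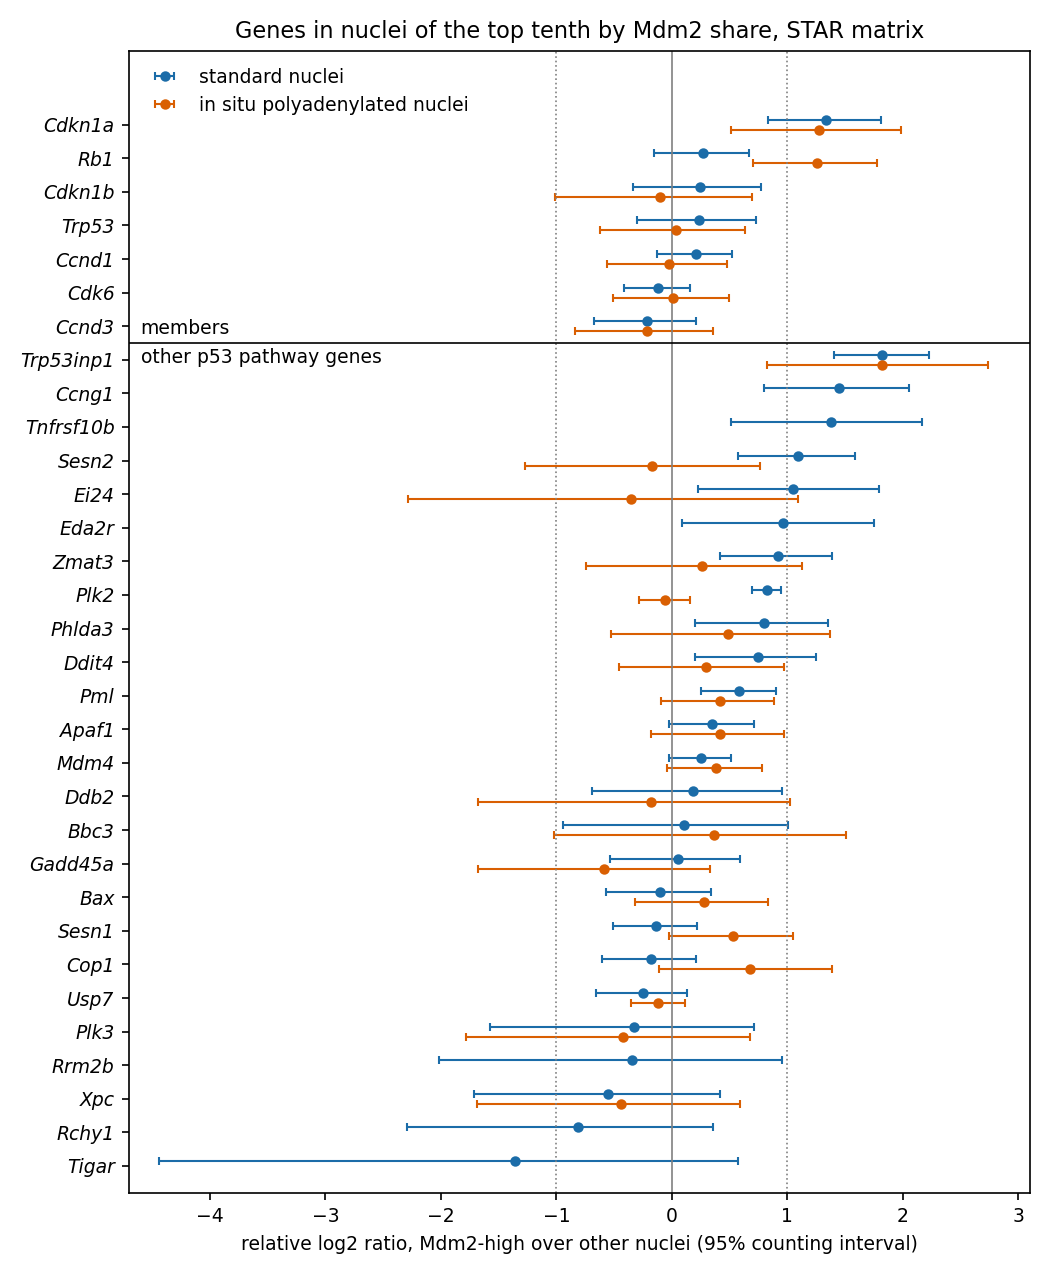
Relative log2 ratio of Mdm2-high over other nuclei (top 10% by Mdm2 share of STAR UMIs) for 7 members and 25 other p53 pathway genes that reached 50 UMIs, in standard and in situ polyadenylated nuclei, with counting 95% intervals; dotted lines mark 2-fold. Cdkn1a and Trp53inp1 lie to the right of 1 in both libraries, and Trp53, Ccnd1, Ccnd3, Cdkn1b and Cdk6 lie around 0. Trp53inp1 reached the minimum in in situ polyadenylated nuclei only through its excess in Mdm2-high nuclei.

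Seen together in 1 nucleus at 2000 STAR UMIs, Mdm2 was present in 46.2% of the 65 standard nuclei with Cdkn1a (33.7% to 59.0%) and in 37.4% of the 1058 without it (34.5% to 40.4%), with overlapping intervals. In in situ polyadenylated nuclei it was present in 29.2% of 24 (12.6% to 51.1%) and 15.2% of 1304 (13.3% to 17.2%). Ccnd1 was present in 22.7% of standard nuclei with Cdk6 and 22.6% without it, and in 19.1% with Ccnd3 and 23.3% without it. Mdm2 was present in 38.5% of standard nuclei with Trp53 and 37.9% without it. Over standard nuclei no gene with at least 500 STAR UMIs reached a correlation of 0.2 with Mdm2 or Cdk6, the 2 members with at least 1000; the highest values were 0.18 for Mdm2 and 0.15 for Cdk6.

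Cell cycle and muscle genes gave small differences. Standard nuclei in the top 25% by S phase genes (280 nuclei, with 178 nuclei within 10% of the limit) had Ccnd3 at 68.9 against 103 CPM, a relative log2 ratio of -0.61 (-0.93 to -0.30), and Mdm2 at 348 against 300 CPM (0.19, 0.04 to 0.33). In the top 10% neither held, with Ccnd3 at -0.34 (-0.83 to 0.11) and Mdm2 at -0.079 (-0.32 to 0.15). S-high in situ polyadenylated nuclei had Ccnd3 at -0.32 (-0.73 to 0.08), Rb1 at 0.62 (0.15 to 1.07) and Trp53 at 0.45 (0.05 to 0.85). In the top 25% by G2/M genes Cdk6 was at 233 against 202 CPM in standard nuclei (0.23, 0.05 to 0.41), and no other member that reached 50 UMIs had an interval apart from 0 in either library.

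In the 112 standard nuclei of the top 10% by 23 muscle differentiation genes Ccnd3 was at 116 against 92.7 CPM (0.44, 0.06 to 0.81), Cdkn1a at 45.1 against 35.0 CPM (0.49, -0.16 to 1.08) and Ccnd1 at 106 against 140 CPM (-0.28, -0.68 to 0.10). Muscle-high in situ polyadenylated nuclei had the same 3 genes at 0.04, -0.39 and 0.16 with intervals that included 0. These values depended on the limit: in the top 25% of standard nuclei Ccnd3 stood at 0.21 (-0.06 to 0.47), Ccnd1 at -0.50 (-0.75 to -0.24) and Mdm2 at -0.18 (-0.34 to -0.02), where the top 10% gave Mdm2 0.21 (-0.01 to 0.43). Cdkn1c was at 0 STAR UMIs in the muscle-high nuclei of both libraries. In the in situ polyadenylated library the typical protein-coding gene was higher by 0.60 in the G2/M-high and by 0.52 in the S-high nuclei, whose median depths were 5188 and 5273 against 7420 and 7384 UMIs in the rest.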

How the data were processed

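Members and gene lists were chosen with earlier results of these data known. The authors trimmed reads with cutadapt 3.4 and used the GRCm39 build with a GENCODE annotation. The deposited kallisto matrices (kallisto 0.48.0, bustools 0.41.0, strand-aware) hold estimated counts of UMIs, not normalized. The deposited STAR matrices (STAR 2.7.10a) hold whole-number UMI counts, not normalized, for a subset of barcodes. Nuclei were barcodes with over 750 kallisto UMIs and under 5% mitochondrial UMIs, a limit that removed none. UMIs were summed over nuclei and rounded. Intervals are exact Poisson for CPM, exact conditional for ratios and Clopper-Pearson for shares. A 0 was counted as 3 UMIs for bounds. Past 2-fold means a relative log2 ratio of at least 1 or at most -1 among protein-coding genes with at least 20 UMIs (50 within a library). Doublets were not called. Gene types and positions came from GENCODE M39 on GRCm39, which holds 54749 of the 55414 genes. The ratio code was tested on simulated data. Alternatives were STAR counts, other limits on UMIs and folds, no centring, shares of protein-coding UMIs, the 5% largest nuclei left out, other thinning depths and other divisions of nuclei.

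Named were the 10 members, the 3 most abundant genes of each pathway list and all past 2-fold in the kallisto matrix. Any other gene was chosen after its values were seen. The Mdm2 division, dispersion, p53 sites, shared sequence and overlaps were added after seeing the data. Python 3.11.15 with numpy 2.4.6, pandas 2.3.3 and scipy 1.17.1 was used.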

Additional observations from a re-analysis of the deposited data

How the results depend on the processing

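No paired analysis was possible because there is 1 library in each group. Without centring, log2 ratios were -1.60 for the median of the members, -1.54 for Ccnd1, -2.17 for Cdkn1a and -2.06 for Mdm2, and 7 members were past 2-fold, which the centre of -1.19 accounts for. STAR counts on the same nuclei gave -0.073 for Cdkn1a, -0.013 for Mdm2 and 0.18 for Ccnd3, and STAR barcodes over 750 STAR UMIs gave 0.18, 0.034 and 0.21, with 0 members past 2-fold in both. Instead of 1 member, 3 were past a 1.5-fold limit, 2 past 2-fold with no minimum of UMIs, 0 with nuclei over 500 UMIs, 2 with nuclei over 1500 and 3 as shares of protein-coding UMIs. The share of all genes past these limits, and past 2-fold without centring, is not given. These counts are therefore not a result about the members. Thinning moved shares of nuclei: at 1000 UMIs Ccnd1 was in 7.11% of in situ polyadenylated nuclei and Mdm2 in 7.23%, and Mdm2 in 20.7% of standard nuclei; at 500 UMIs the standard shares were 9.44% and 11.8%. Set against barcodes with over 100 and up to 500 UMIs, the median of in situ polyadenylated nuclei was 0.16, their Cdkn1a 0.96 and standard Cdkn1b 0.12, and against 1 to 10 UMIs Cdkn1b of in situ polyadenylated nuclei was 0.39. Mdm2 in the top 10% by S phase genes was -0.079 in standard nuclei. Cdkn1a in Mdm2-high nuclei was 0.45 in the top 25% and 2.15 with kallisto counts (6 against 13 UMIs) after polyadenylation, and among standard nuclei 0.65 with kallisto counts, 0.79 divided by kallisto and -0.82 with kallisto for both, settings added after seeing the data. Division by kallisto could not be made in the in situ polyadenylated library, where under 10% of nuclei held Mdm2. The causes were not tested. Of the other alternatives, 48 for summary results and 122 for single genes stayed within counting error (1.5 times for counts), 2 and 20 of them on the other side of 0, and 38 for single genes moved beyond it, of which 12 changed sign. At 3 and 10 kallisto UMIs a relative difference of Ccnd2 between the libraries was not detectable, and Cdkn1c at 0 in both gave none.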

Other observations

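Protein-coding genes outside the members and the p53 list were ordered by their excess of UMIs in standard Mdm2-high nuclei over a proportional share, in units of counting error, and were thus chosen after their values were seen. Peak1 came first, with 957 and 5408 UMIs (0.79) in standard nuclei and -0.64 in in situ polyadenylated nuclei, and Taco1 stood at 0.19 and -0.18. Ptp4a3, a phosphatase, had 100 UMIs in Mdm2-high and 356 in other standard nuclei (relative log2 ratio 1.46, 1.12 to 1.78) and 44 and 240 in in situ polyadenylated nuclei (0.81, 0.31 to 1.28). Cd80, a costimulatory ligand, had 112 and 498 (1.13, 0.83 to 1.43) and 43 and 178 (1.21, 0.70 to 1.70). P2rx7, an ATP-gated channel, had 43 and 160 (1.39) and 17 and 63 (1.37). The glycolytic enzyme Hk2 stood at 0.94 (0.66 to 1.22) in standard but at -0.06 (-0.60 to 0.44) in in situ polyadenylated nuclei, and Nav2 at 0.78 and 0.11. Zbtb10 stood at 1.18 in standard and at -0.53 in in situ polyadenylated nuclei. The order was taken from the standard library, so its values there are a description.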
